A study of Mus musculus with 12 samples.

Results

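The 10 genes described here encode enzymes that break down the branched-chain amino acids valine, leucine and isoleucine: Bcat1, Bcat2, Bckdha, Bckdhb, Dbt, Ivd, Mccc1, Mccc2, Hibch and Acadsb. They were chosen by gene symbol, and all 10 were found among the 17955 genes of the deposited expression table. Their transcripts were measured by RNA sequencing in regulatory T cells (Tregs), the Foxp3-expressing T cells that restrain immune responses, sorted by flow cytometry as CD4+CD25+YFP+ cells from spleen and lymph node of C57BL/6 mice aged 7 weeks. All mice carried Foxp3YFP-cre, which expresses a Cre recombinase and a yellow fluorescent protein in Foxp3-expressing cells. The transketolase alleles were TKT+/+ in wild-type (WT) mice and TKTfl/fl in conditional knockout (cKO) mice, whose floxed Tkt gene the Cre removes in those cells. Mice of each genotype were given vehicle or DMαKG, dimethyl α-ketoglutarate, an ester that enters cells, in drinking water, starting in their mothers' pregnancy and lasting until adulthood. This gave 4 groups of 3 libraries: WT vehicle, cKO vehicle, WT DMαKG and cKO DMαKG.

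Branched-chain amino acids are first transaminated: an aminotransferase, cytosolic (Bcat1) or mitochondrial (Bcat2), moves the amino group to α-ketoglutarate, which yields glutamate and a branched-chain keto acid. The mitochondrial branched-chain keto acid dehydrogenase complex (BCKDH) then decarboxylates the keto acid in the committed step of the pathway, and separate enzymes for leucine, valine and isoleucine carry the products on toward acetyl-CoA, acetoacetate or propionyl-CoA. In mouse T cells Bcat1 is known as an activation-induced gene, and the transporter subunit Slc3a2 is known to matter for Treg expansion through isoleucine uptake.

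Summed estimated counts ran from 1.57e+07 to 1.89e+07 per library, and 12903 genes had enough counts to be tested, all 10 members among them. Tkt stood at 102 to 194 CPM (counts per 1000000 reads, with library sizes scaled by TMM) in the 6 WT libraries and at 26.2 to 41.8 CPM in the 6 cKO libraries, with log2 fold changes of -1.72 with vehicle and -2.08 with DMαKG (edgeR adjusted p = 0.0148 and 0.00389). The defining Treg markers were present in every library, with Foxp3 at 280 to 545 CPM and Il2ra at 467 to 776 CPM. The libraries were not alike in 2 other ways. On the first principal component, replicate 4 of both vehicle groups and replicate 3 of WT DMαKG had the lowest scores (-32.9, -32.8 and -29.7), and cKO DMαKG replicate 3 had the highest (47.0). Ddx3y, a Y-linked gene, was under 1 CPM in WT vehicle replicate 3 and cKO DMαKG replicates 1 and 3 and at 22.6 to 241 CPM in the rest. The labels name neither the sex of the mice nor a sequencing batch.

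All 10 enzymes were expressed in these Tregs, with mean levels above 45.3% (Bcat1) to 76.7% (Bcat2) of the genes in the deposited table. Per transcript length, on the deposited TPM scale (transcripts of the gene per 1000000 transcripts) and over all 12 libraries, Bcat2 had the highest level at 42.0 ± 4.48 TPM (SD, n = 12), ahead of Bckdha at 39.5 ± 3.64, Bckdhb at 34.0 ± 6.39, Ivd at 30.8 ± 3.21 and Hibch at 28.2 ± 2.23. Acadsb followed at 22.1 ± 3.17 TPM, Mccc1 at 19.6 ± 2.68, Dbt at 15.1 ± 1.78 and Mccc2 at 10.7 ± 1.56, and Bcat1 was lowest at 4.15 ± 0.807 TPM. Bcat1 was below every other member in all 12 libraries, and its range did not overlap that of Mccc2, the next gene up. Each other pair of neighbours in this order had overlapping ranges; Hibch was nevertheless above Acadsb within each of the 12 libraries, while Bcat2 was above Bckdha in 9. The order at the top was not the same in each group. In cKO DMαKG libraries Bckdhb had the highest mean, at 42.1 ± 6.19 TPM. Bcat2 followed at 38.6 ± 7.29 and Bckdha at 35.7 ± 2.29 (SD, n = 3). The range of Bckdhb overlapped those of both Bcat2 and Bckdha.

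**Figure D1:**
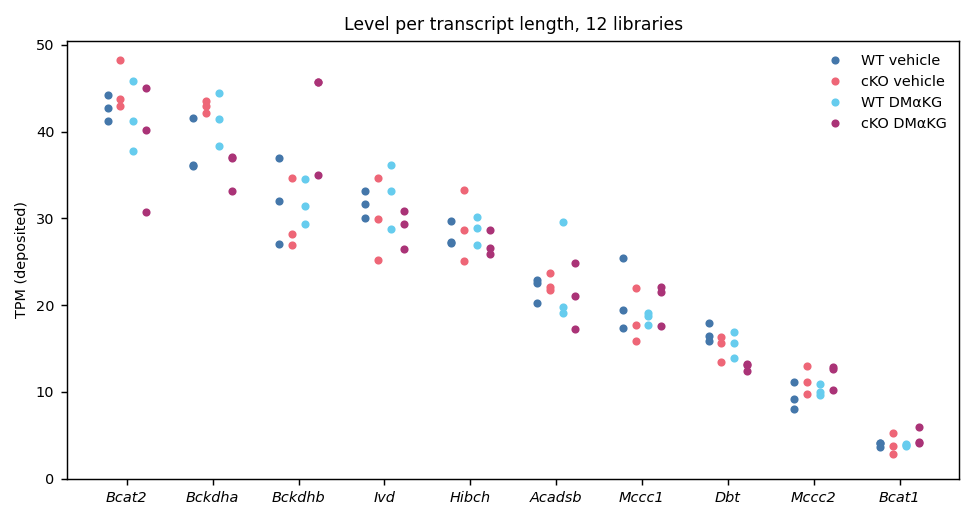
Deposited TPM of the 10 enzymes in each library, ordered by their mean over 12 libraries and coloured by group. Bcat2 has the highest mean over the 12 libraries (42.0 TPM) and Bcat1 lowest (4.15 TPM), with no overlap between Bcat1 and Mccc2.

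With edgeR's quasi-likelihood test 0 of 10 members passed an adjusted p of 0.05 in any comparison. For cKO against WT with vehicle 0.0620% of all tested genes passed, and with DMαKG 0.186%. For DMαKG against vehicle 0% passed in WT and 0% in cKO mice. In the interaction of genotype and DMαKG 0% passed, and in the test of any difference among the 4 groups 0.473%. The comparisons averaged over the other factor called 1.01% of genes for genotype and 0.00775% for DMαKG. With so few genes called, a count of 0 among 10 members lies near the background.

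At an unadjusted p under 0.05, edgeR counted 0 members for cKO against WT with vehicle (7.29% of all tested genes) and 1 with DMαKG (Bckdhb, 10.4%). It counted 0 for DMαKG against vehicle in WT (2.73%) and 1 in cKO mice (Bckdhb, 17.3%). The averaged comparisons gave 1 for genotype (Mccc2, 12.8%) and 1 for DMαKG (Bckdhb, 15.9%), the interaction gave 2 (Bckdhb and Bckdha, 3.64%), and the test among the 4 groups gave 2 (Bckdhb and Mccc2, 14.6%). DESeq2 and limma voom also called 0 members for cKO against WT within either treatment, for DMαKG in WT mice and for the interaction. DESeq2 called 0.775% of all tested genes for genotype with vehicle, 1.11% with DMαKG, 0.0155% for DMαKG in WT mice and 0.00775% for the interaction. For voom these shares were 1.90%, 1.84%, 0.0620% and 0.00775%. A count of 0 among 10 members lies near these shares too. The calls that both tools made are given with the genes below. In all 4 pairwise comparisons the 95% intervals of the 9 members other than Bckdhb lay between -0.45 and 0.89 on the log2 scale, which leaves a 2-fold difference outside them. For Bcat2, the most precisely measured member, they lay between -0.28 and 0.32. The standard errors of the members ran from 0.10 to 0.23 in log2.

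**Figure D2:**
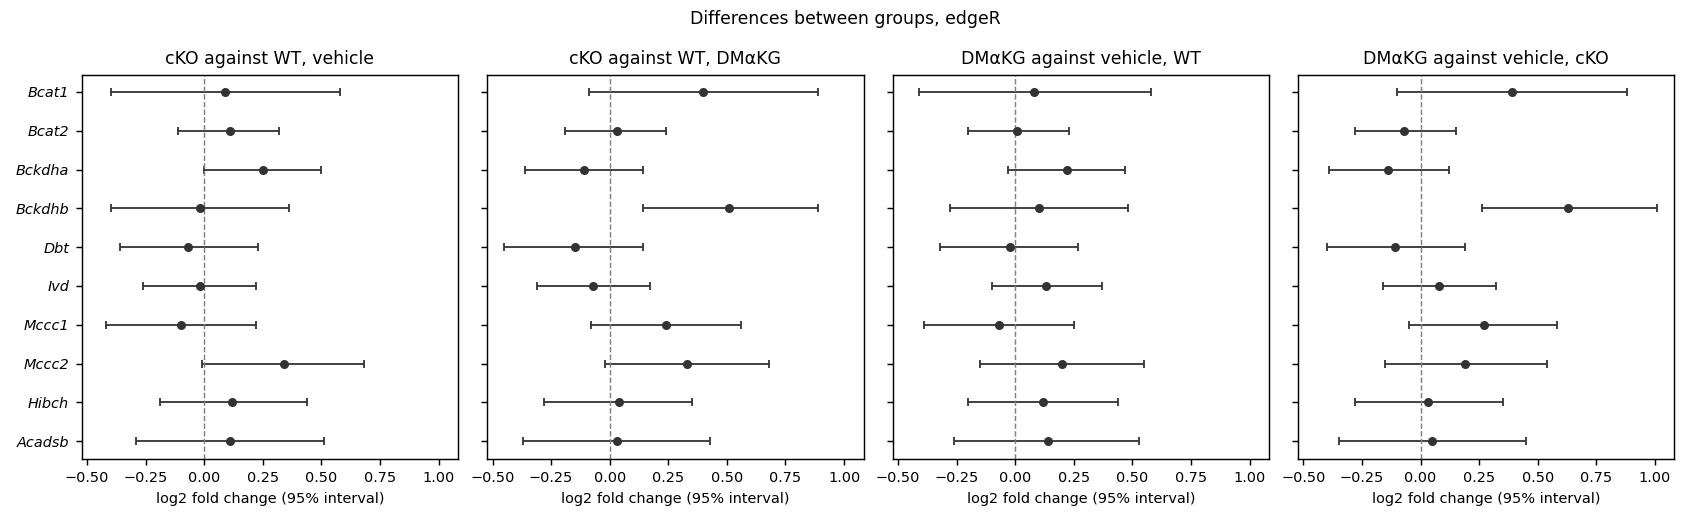
edgeR log2 fold changes of the 10 enzymes with 95% intervals in the 4 pairwise comparisons; the dashed line marks no difference. The interval of Bckdhb lies above 0 in cKO mice given DMαKG against either comparison group (0.51 and 0.63), and no adjusted p was below 0.05.

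Neither of the aminotransferases, which use α-ketoglutarate as the acceptor, passed edgeR's test in any comparison. Bcat1 (gene 12035, chromosome 6, 144993835 to 145076157, GRCm38) had 12.7, 13.5 and 13.5 CPM in vehicle replicates 2, 3 and 4 of WT mice and 9.42, 13.5 and 19.3 CPM in those of cKO mice. In DMαKG replicates 1, 2 and 3 its CPM was 14.6, 14.6 and 12.8 for WT mice and 22.5, 14.5 and 18.6 for cKO mice. Both cKO groups were thus spread widely and overlapped the WT group given the same treatment; the 6 WT libraries stayed within 12.7 to 14.6 CPM. Its log2 fold change was 0.09 (SE 0.23, edgeR adjusted p = 0.979) for cKO against WT with vehicle and 0.40 (95% interval -0.09 to 0.89) with DMαKG. For DMαKG against vehicle in cKO mice it was 0.39 (interval -0.10 to 0.88), and it was 0.17 without cKO vehicle replicate 2, the lowest library, and 0.69 without cKO vehicle replicate 4. Bcat2 (gene 12036, chromosome 7, 45568967 to 45589710) held between 32.6 and 38.2 CPM over all 12 libraries, with group means of 34.3 ± 0.324 (WT vehicle), 36.9 ± 1.09 (cKO vehicle), 34.6 ± 1.48 (WT DMαKG) and 35.3 ± 2.54 CPM (cKO DMαKG; SD, n = 3). With vehicle its cKO libraries (36.3 to 38.2 CPM) lay above those of WT mice (34.0 to 34.6 CPM), with a log2 fold change of 0.11 (interval -0.11 to 0.32, edgeR adjusted p = 0.931). Within each library the ratio of Bcat1 to Bcat2 in TPM ran from 0.0581 to 0.149, so the mitochondrial enzyme's transcript was the more abundant one throughout.

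Of the BCKDH subunits, Bckdhb had its highest levels in cKO mice given DMαKG, without passing edgeR's test. Bckdhb (gene 12040, chromosome 9, 83925111 to 84124240), which encodes the beta subunit of the decarboxylase component, had the smallest p of the 10 members in the test among the 4 groups, where it ranked 516 of 12903 genes (edgeR adjusted p = 0.183). It had 18.9, 20.8 and 15.3 CPM in vehicle replicates 2, 3 and 4 of WT mice and 19.8, 17.4 and 17.1 CPM in those of cKO mice. In DMαKG replicates 1, 2 and 3 its CPM was 22.2, 19.7 and 17.0 for WT mice and 22.4, 27.5 and 34.1 for cKO mice. The cKO DMαKG libraries were the highest of all 12, but the lowest of them, at 22.4 CPM, was close to WT DMαKG replicate 1, at 22.2 CPM. In cKO mice given DMαKG its log2 fold change was 0.63 against cKO vehicle (SE 0.17, interval 0.26 to 1.01, adjusted p = 0.155) and 0.51 against WT DMαKG (SE 0.17, interval 0.14 to 0.89, adjusted p = 0.323). Without cKO DMαKG replicate 3 these values were 0.47 and 0.35 (adjusted p = 0.37 and 0.546). In WT mice the difference with DMαKG was 0.10 (interval -0.28 to 0.48). The interaction was 0.53 (SE 0.25, interval 0 to 1.06, adjusted p = 0.955), and the difference with DMαKG averaged over genotypes was 0.37 (interval 0.10 to 0.63, adjusted p = 0.203).

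The call on Bckdhb depended on the tool. DESeq2's Wald test called it for DMαKG against vehicle in cKO mice (log2 fold change 0.65, adjusted p = 0.0345), where it called 1.11% of all tested genes as higher. Its likelihood ratio test among the 4 groups also called Bckdhb, with 5.13% of genes called. limma voom, with a quality weight for each sample, called it in neither (0.45 and adjusted p = 0.0919 for DMαKG against vehicle in cKO mice). Over all alternatives the adjusted p of that comparison ran from 0.0345 to 0.909, the highest with Y-linked expression as a covariate (log2 fold change 0.51). The comparison is not balanced for Y-linked expression. Ddx3y was at 156, 219 and 190 CPM in cKO vehicle replicates 2, 3 and 4. In cKO DMαKG replicates 1, 2 and 3 it was at 0.518, 155 and 0.509 CPM. For cKO against WT with DMαKG voom gave 0.23 and DESeq2 0.51 (adjusted p = 0.43 and 0.203). None of the 12 deposited counts of Bckdhb was a whole number, so its counts are estimates, and the gene overlaps Gm46124 and Gm29163, which are outside the table.

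The same cKO DMαKG libraries stood apart in some other transcripts. The summed level of 8 B cell markers was 43.3 to 95.3 CPM there and 21.3 to 35.3 CPM in the other 9 libraries. Of the 8, 1 averaged under 1 CPM in cKO DMαKG, as did 1 in each WT group and 2 in cKO vehicle. None was at 0 in all libraries of any group. These counts do not show which markers carried the higher sum. The summed level of 6 Treg and T cell markers was 5370 to 6090 CPM there, 3960 to 4040 CPM in WT vehicle, 3520 to 4330 CPM in cKO vehicle and 4030 to 5170 CPM in WT DMαKG. That difference lay in Ctla4, at 1970 to 3000 CPM in cKO DMαKG and 490 to 1720 CPM in the other libraries. The other 5 of these markers summed to 3090 to 3400 CPM in cKO DMαKG and 3030 to 3510 CPM elsewhere. CD8 and NK cell markers summed to 30.1 to 36.7 CPM there and 24.2 to 33.3 CPM elsewhere. Myeloid marker sums overlapped, at 66.8 to 162 CPM in cKO DMαKG and 40.3 to 163 CPM elsewhere, as did those of proliferation genes, at 952 to 1490 and 451 to 1250 CPM. Dendritic cell marker sums overlapped too, at 21.4 to 50 CPM in cKO DMαKG and 11 to 67.9 CPM elsewhere. So did erythroid marker sums, at 2.02 to 7.06 and 1.35 to 19.4 CPM. The part of these transcripts in the Bckdhb values was not tested. In bulk RNA of sorted cells, a different mix of cells and a different level per cell cannot be told apart.

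Bckdha (gene 12039, chromosome 7, 25629852 to 25658782), which encodes the alpha subunit of the same decarboxylase component, had its highest mean in cKO vehicle and its lowest in WT vehicle libraries. It had 27.6, 26.3 and 30.3 CPM in vehicle replicates 2, 3 and 4 of WT mice and 31.7, 34.4 and 34.1 CPM in those of cKO mice. In DMαKG replicates 1, 2 and 3 its CPM was 34.5, 35.5 and 28.2 for WT mice and 30.6, 29.0 and 31.6 for cKO mice. Every cKO vehicle library lay above all WT vehicle libraries, and every cKO DMαKG library lay below cKO vehicle, the nearest at 31.6 against 31.7 CPM. The log2 fold change was 0.25 for cKO against WT with vehicle (SE 0.12, interval 0 to 0.50, adjusted p = 0.686) and -0.14 for DMαKG against vehicle in cKO mice (interval -0.39 to 0.12). The interaction was -0.36 (interval -0.72 to 0, adjusted p = 0.955). limma voom called Bckdha in the test among the 4 groups (adjusted p = 0.0467), as it did 14.7% of all tested genes.

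The ratio of Bckdhb to Bckdha in TPM was 0.887, 1.02 and 0.652 in WT vehicle replicates 2, 3 and 4 and 0.809, 0.648 and 0.639 in cKO vehicle replicates 2, 3 and 4. It was 0.832, 0.707 and 0.766 in WT DMαKG replicates 1, 2 and 3 and 0.944, 1.23 and 1.38 in cKO DMαKG replicates 1, 2 and 3. All cKO DMαKG values were above those of cKO vehicle and WT DMαKG, and WT vehicle replicate 3 overlapped them. The ratio was formed after the values were seen and was not tested. Dbt (gene 13171, chromosome 3, 116513070 to 116549981), which encodes the transacylase core of the complex, had group means of 23.0 ± 1.19, 22.0 ± 2.41, 22.7 ± 1.99 and 20.4 ± 2.80 CPM (SD, n = 3) in WT vehicle, cKO vehicle, WT DMαKG and cKO DMαKG, with ranges that overlapped in every comparison.

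**Figure D3:**
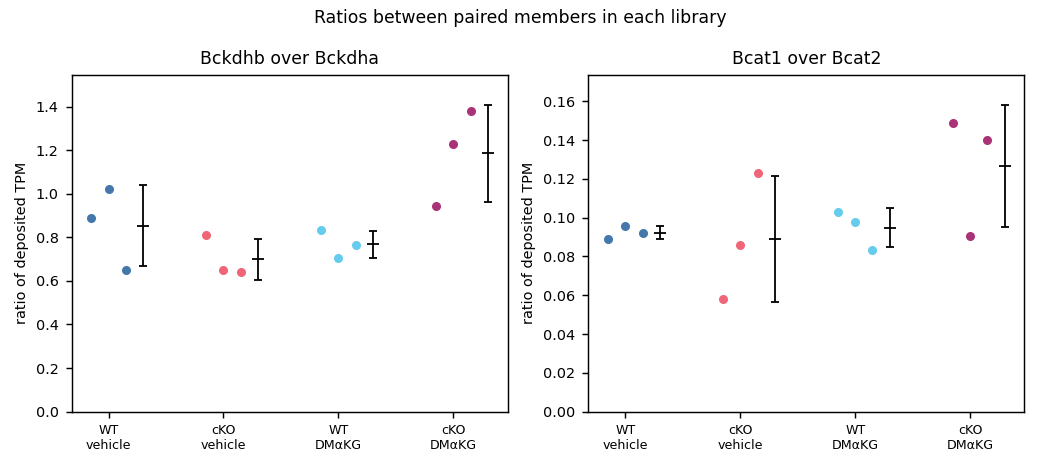
Ratio of deposited TPM of Bckdhb to Bckdha (left) and of Bcat1 to Bcat2 (right) in each library; points are libraries, black marks the mean and SD of 3. The 3 cKO DMαKG libraries have Bckdhb to Bckdha ratios of 0.944 to 1.38, and 1 other library (WT vehicle replicate 3, 1.02) lies in that range.

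Of the leucine enzymes, Mccc2 had higher means in cKO than in WT mice with either treatment, without passing edgeR's test. Mccc2 (gene 78038, chromosome 13, 99948532 to 100015639) encodes the beta subunit of methylcrotonyl-CoA carboxylase, a biotin-dependent enzyme. It had 7.40, 8.05 and 9.81 CPM in vehicle replicates 2, 3 and 4 of WT mice and 9.91, 9.34 and 12.6 CPM in those of cKO mice. In DMαKG replicates 1, 2 and 3 its CPM was 9.67, 9.64 and 9.71 for WT mice and 12.8, 11.9 and 11.7 for cKO mice. Groups were apart with DMαKG, and with vehicle WT replicate 4 lay above cKO replicate 3. The log2 fold change for cKO against WT was 0.34 with vehicle (SE 0.16, adjusted p = 0.706) and 0.33 with DMαKG (SE 0.16, adjusted p = 0.503). Without cKO vehicle replicate 4, the highest vehicle library, the first of these was 0.19, and leaving out single libraries kept the second between 0.31 and 0.36. Averaged over treatments it was 0.33 (SE 0.11, interval 0.09 to 0.58, adjusted p = 0.216), and the interaction was -0.01 (interval -0.49 to 0.48 in log2). limma voom called the averaged difference (0.34, adjusted p = 0.037), where it called 4.79% of all tested genes as higher. It also called that of DMαKG averaged over genotypes (0.32, adjusted p = 0.0354, with 5.00% of genes called as higher), where edgeR gave 0.20 (adjusted p = 0.411), and Mccc2 in the test among the 4 groups (adjusted p = 0.0296).

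Mccc1 (gene 72039, chromosome 3, 35956292 to 36000694), the biotin-carrying alpha subunit of that carboxylase, had group means of 26.3 ± 4.99 CPM in WT vehicle, 24.6 ± 2.92 in cKO vehicle, 25.0 ± 2.43 in WT DMαKG and 29.5 ± 0.817 in cKO DMαKG (SD, n = 3). Its cKO DMαKG libraries (28.7 to 30.3 CPM) lay above all those of cKO vehicle and WT DMαKG, but WT vehicle replicate 3 reached 31.6 CPM. The log2 fold changes behind this were 0.27 against cKO vehicle (interval -0.05 to 0.58) and 0.24 against WT DMαKG (interval -0.08 to 0.56). Ivd (gene 56357, chromosome 2, 118861959 to 118882909), isovaleryl-CoA dehydrogenase, which acts before the carboxylase, lay between 42.3 and 55.5 CPM, and its pairwise log2 fold changes ran from -0.07 to 0.13.

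The valine and isoleucine enzymes did not pass edgeR's test in any comparison, and most of their groups overlapped. Hibch (gene 227095, chromosome 1, 52845038 to 52920986), the hydrolase of 3-hydroxyisobutyryl-CoA in valine breakdown, lay between 20.7 and 28.5 CPM, with its highest levels in cKO DMαKG replicate 3 and cKO vehicle replicate 4. Acadsb (gene 66885, chromosome 7, 131410601 to 131446211), the short/branched-chain acyl-CoA dehydrogenase of isoleucine breakdown, stood within 29.8 to 32.1 CPM in WT vehicle and 33.6 to 33.7 CPM in cKO vehicle. With DMαKG its spread was wider, at 29.3 to 41.9 CPM in WT and 25.8 to 45.5 CPM in cKO mice. The log2 fold change of Acadsb was 0.11 (interval -0.29 to 0.51) for genotype with vehicle, although these groups did not overlap.

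**Figure D4:**
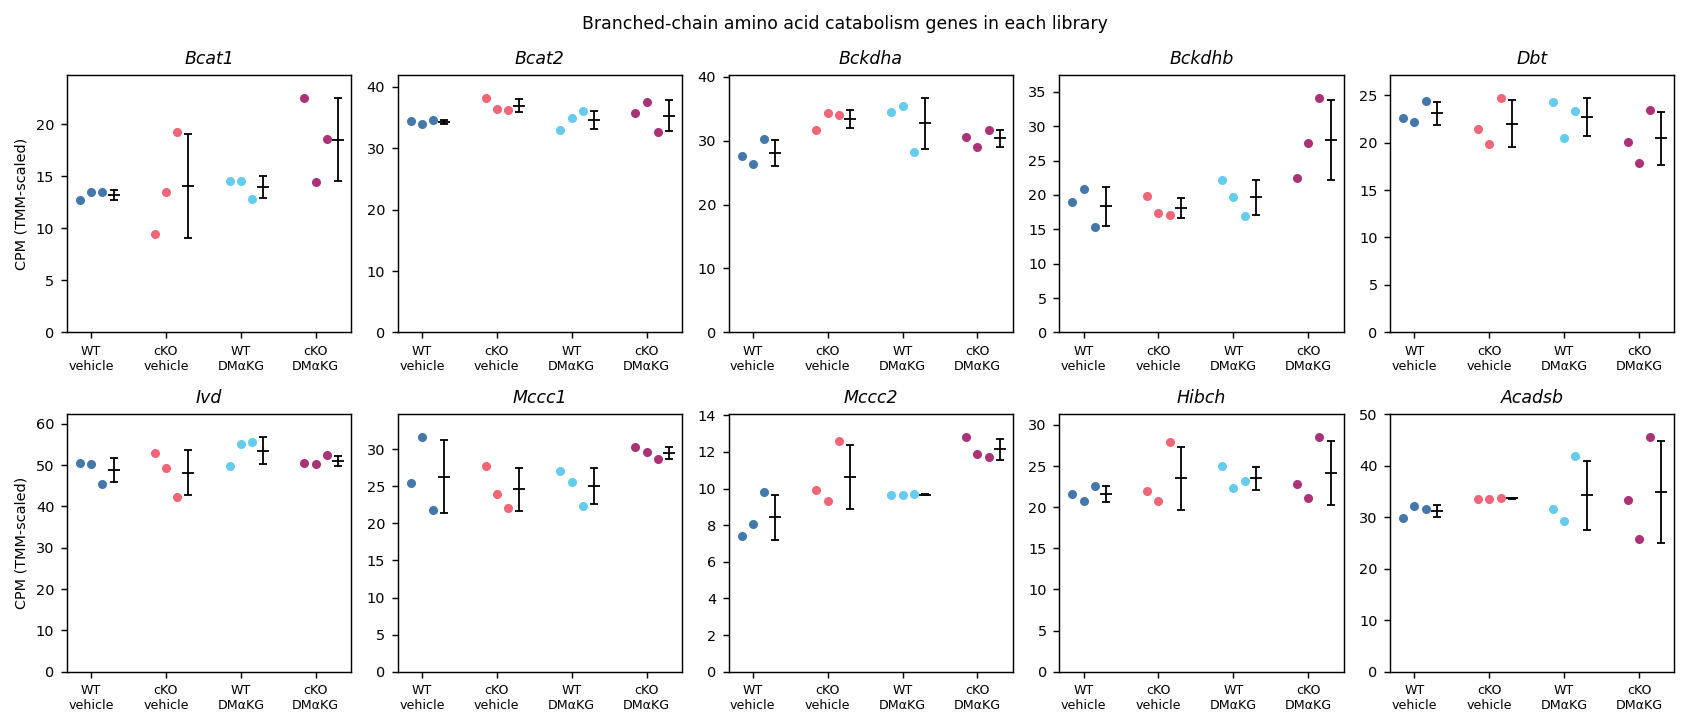
TMM-scaled CPM of each enzyme in each library, with the 3 libraries of a group in order of replicate number as points and black marks for the mean and SD. Bckdhb is highest in the cKO DMαKG libraries (22.4 to 34.1 CPM), and Bcat2 stays between 32.6 and 38.2 CPM.

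Counted together, more members had positive than negative log2 fold changes in each pairwise comparison, with medians near 0. For cKO against WT with vehicle 6 of 10 were higher and 4 lower, where 51.6% of all tested genes were higher. The members' median log2 fold change was 0.10 beside 0.01 over all tested genes. With DMαKG 7 were higher and 3 lower (50% of all genes higher), with a median of 0.03 beside 0. For DMαKG against vehicle the median was 0.11 in WT (8 higher) and 0.07 in cKO mice (7 higher), beside 0 for all genes in each. Of all genes 49.8% and 50.4% were higher in these 2 comparisons. Within these comparisons 3 members were wholly above WT in cKO vehicle libraries (Bcat2, Bckdha and Acadsb), as were 8.29% of all tested genes, and 3 with DMαKG (Bckdhb, Mccc1 and Mccc2), as were 7.92% of genes. For DMαKG against vehicle 0 were apart in WT mice (8.45% of genes). In cKO mice Bckdhb and Mccc1 were wholly higher with DMαKG (8.91% of genes) and Bckdha wholly lower (12.2% of genes). Averaged over the other factor, 8 members were higher for genotype (48.9% of genes) and 8 for DMαKG (50.4%). In the interaction 3 were higher (48.7% of genes) and 7 lower, with a median of -0.06 beside -0.01. Comparisons that use the same group share its libraries and are not independent.

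On the deposited TPM scale the median gene differed between groups. The median log2 TPM ratio over all tested genes was -0.12 for DMαKG against vehicle in cKO mice, -0.11 for cKO against WT with DMαKG and -0.08 for DMαKG against vehicle in WT mice. Ivd, Hibch and Acadsb had TPM ratios of -0.05, -0.10 and -0.10 for DMαKG against vehicle in cKO mice, which relative to the median gene were 0.07, 0.02 and 0.02, beside edgeR values of 0.08, 0.03 and 0.05. Relative to the median gene, Bckdhb had 0.61 against cKO vehicle and 0.51 against WT DMαKG in cKO DMαKG libraries, beside edgeR values of 0.63 and 0.51. For cKO against WT with DMαKG, Bcat2, Hibch and Acadsb had TPM ratios of -0.11, -0.08 and -0.12, which relative to the median gene were 0, 0.02 and -0.01, beside edgeR values of 0.03, 0.04 and 0.03. In WT mice, for DMαKG against vehicle, Bcat1, Bcat2 and Bckdhb had TPM ratios of -0.01, -0.04 and -0.01, which relative to the median gene were 0.08, 0.05 and 0.07, beside edgeR values of 0.08, 0.01 and 0.10.

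The members did not vary as a block. Over the 12 libraries the highest Pearson correlations of log2 CPM between members were those of Bckdhb with Mccc1 (r = 0.73), Bcat1 with Mccc2 (0.66) and Dbt with Hibch (0.62), and the lowest was that of Bcat2 with Dbt (-0.55). After subtracting each group's mean, Dbt and Hibch had r = 0.94. Bckdha and Bckdhb, subunits of the same enzyme component, had r = -0.05 over the 12 libraries and 0.06 within groups. Mccc1 and Mccc2, likewise subunits of the same enzyme, had 0.05 over the 12 libraries and -0.52 within groups. Among all tested genes, those whose log2 CPM was most like that of Bckdhb over the 12 libraries were Tnfsf8 (r = 0.95), Hexdc (0.95) and Gpr65 (0.94). These correlations are descriptions over libraries that share groups and scaling.

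Of 26 other genes of branched-chain amino acid transport and breakdown, all were tested and 0 passed edgeR's test in any comparison. At an unadjusted p under 0.05 there were 1 for cKO against WT with vehicle, 1 with DMαKG, 1 for DMαKG against vehicle in WT and 3 in cKO mice, at or below the shares of all tested genes given above except with DMαKG in WT mice (2.73%). Their median log2 fold changes in these comparisons were 0.05, 0.04, 0.07 and 0.05. The averaged comparisons gave 4 for genotype (12.8% of all tested genes) and 5 for DMαKG (15.9%). The test among the 4 groups gave 4 (14.6%) and the interaction 0 (3.64%). All of these except the interaction were slightly above the share of all tested genes. The smallest p among the 4 groups belonged to Slc3a2, the heavy chain that pairs with Slc7a5 to import large neutral amino acids (edgeR adjusted p = 0.138). Slc3a2 had 138, 145 and 94.0 CPM in vehicle replicates 2, 3 and 4 of WT mice and 130, 157 and 105 CPM in those of cKO mice. In DMαKG replicates 1, 2 and 3 its CPM was 166, 184 and 106 for WT mice and 241, 225 and 230 for cKO mice. The cKO DMαKG libraries were above all others, with log2 fold changes of 0.83 against cKO vehicle (SE 0.21, adjusted p = 0.145) and 0.61 against WT DMαKG (SE 0.21, adjusted p = 0.335). DESeq2 and voom called some of the 26 genes, given here with the number of all 12903 genes called. For DMαKG against vehicle in cKO mice DESeq2 called 2 (Slc3a2 and Slc25a44), with 385 genes called, and voom called 1 (Slc3a2), with 450. For DMαKG averaged over genotypes DESeq2 called the same 2, with 344 genes called, and voom called 5 (Slc3a2, Slc25a44, Echs1, Bckdk and Acat1), with 1546. Among the 4 groups DESeq2 called 1 (Slc3a2), with 662 genes called, and voom called 5 (Slc3a2, Slc25a44, Echs1, Bckdk and Mmaa), with 1892. For genotype, voom called 1 with vehicle (Mmaa, with 245 genes called) and 1 averaged over treatments (Slc7a5, with 1038). DESeq2 called 0 in these comparisons, with 100 and 398 genes called. Both called 0 for cKO against WT with DMαKG (143 genes called by DESeq2 and 237 by voom). They also called 0 for DMαKG in WT mice (2 and 8 genes) and for the interaction (1 gene each).

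Slc25a44, the mitochondrial carrier of branched-chain amino acids, had its lowest group mean in the same libraries. It stood at 29.2 ± 3.90 CPM in WT vehicle, 32.2 ± 1.89 in cKO vehicle, 22.5 ± 7.78 in WT DMαKG and 18.5 ± 4.22 in cKO DMαKG (SD, n = 3). For DMαKG against vehicle its log2 fold change was -0.80 in cKO (SE 0.23, adjusted p = 0.156) and -0.38 in WT mice (interval -0.86 to 0.11). Echs1, an enoyl-CoA hydratase, stood at 30.6 ± 0.659 CPM with vehicle and 38.2 ± 4.15 with DMαKG in WT mice, and at 31.7 ± 2.01 and 39.8 ± 7.27 CPM in cKO mice. Its log2 fold change averaged over genotypes was 0.32 (SE 0.10, interval 0.11 to 0.53, adjusted p = 0.176). Echs1 overlaps Paox in the annotation and is uncertain. None of these 3 genes passed edgeR's threshold, while voom called all 3, and DESeq2 called Slc3a2 and Slc25a44, for DMαKG averaged over genotypes.

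**Figure D5:**
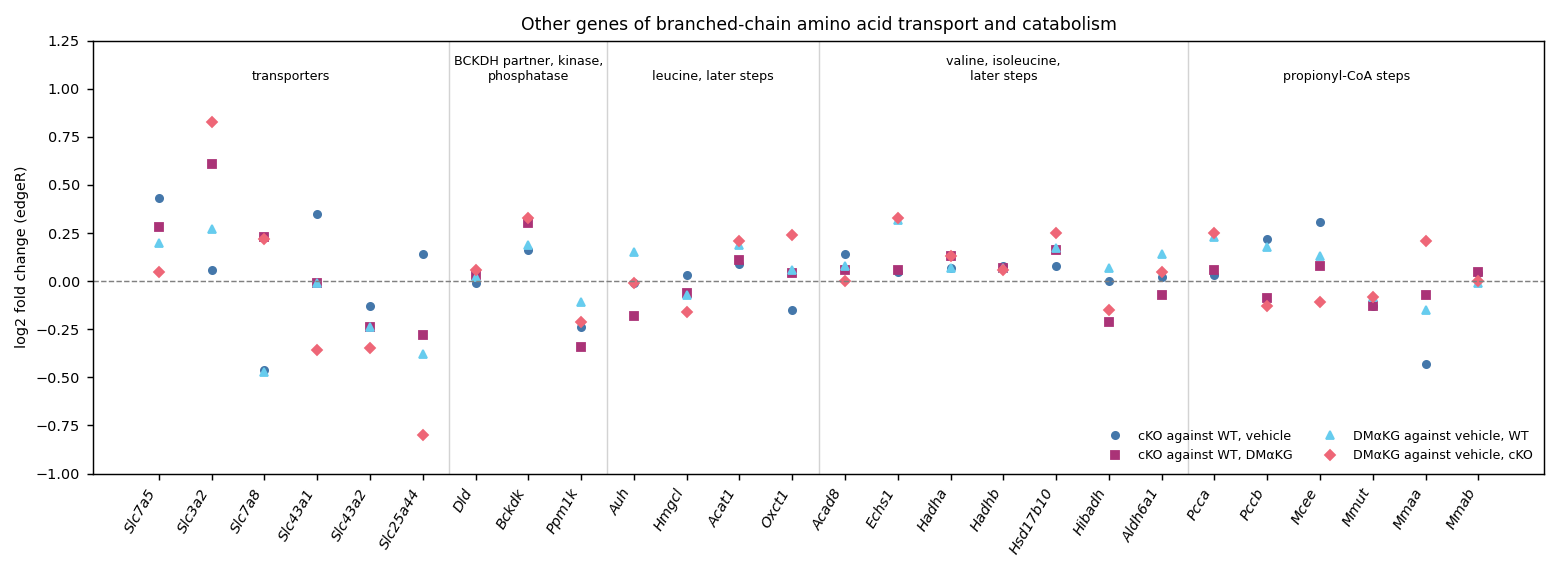
edgeR log2 fold changes of the 26 other pathway genes in the 4 pairwise comparisons, grouped by role. The points farthest from 0 are those of Slc3a2 (0.83) and Slc25a44 (-0.80) for DMαKG against vehicle in cKO mice; 0 of 26 genes passed.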

How the data were processed

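Groups and replicate numbers came from the sample titles. The authors deposited 1 table of estimated read counts, FPKM and TPM per gene. The estimated counts were deposited without normalization. Since 36.0% of them were not whole (tolerance 1e-06), all were rounded. Deposited TPM values served to compare levels between genes, and the FPKM values that the authors deposited were not used. Per the submitters' processing notes the named tools are HISAT2 2.0.5, DESeq2 1.16.1 and featureCounts 1.5.0-p3, each with no stated role, and the build is mm10. Use of strand in counting is not given in these sources, so overlapping genes are uncertain. No member overlapped another gene of the table; 6 overlap RefSeq (GRCm38.p6, from which coordinates were taken) genes outside it, among them Mccc1os on Mccc1 and Gm46124 on Bckdhb.

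edgeR 4.0.16 (R 4.3.3) was run on 12903 genes kept by its expression filter, with TMM scaling, 1 mean per group over 12 libraries, 8 residual degrees of freedom and a robust quasi-likelihood fit. Adjusted p-values (Benjamini-Hochberg) cover all tested genes of a comparison, with a threshold of 0.05. Intervals cover 95%. SDs and p-values rest on 3 libraries per group, mice per the series' design text. Counts of the members ran from 131 to 1041 per library, a counting error of 8.74% to 3.10%. No replicates agreed within sampling noise. The fit was tested on simulated counts, drawn independently for each library with differences set in 1 group. That test does not cover the differences between libraries described above. All members are named; values per library are given for the 4 with the smallest p among the 4 groups. For the other pathway genes the 3 with the smallest p are described, and the 3 genes most like the first member are named by Pearson correlation. Members and lists were chosen with earlier results of these data known. Alternatives were other scalings, filters and tools (DESeq2 1.42.0, limma 3.58.1 voom), left-out libraries, fits restricted to the compared groups, a replicate block, a Y-linked covariate and, chosen after seeing the data, a fit without the robust option.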

Additional observations from a re-analysis of the deposited data

How the results depend on the processing

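Member calls came from DESeq2 and voom alone. DESeq2 called 1 member for DMαKG against vehicle in cKO mice, with 1.11% of all tested genes called as higher. It called 1 in the test among the 4 groups, with 5.13% of genes called (Bckdhb in each). With quality weights, voom called 1 in each averaged comparison (Mccc2). There it called 4.79% of genes as higher for genotype and 5.00% for DMαKG. In the test among the 4 groups voom called 2 (Bckdha and Mccc2), with 14.7% of genes called. Under every other alternative run, the count was 0. The members' median log2 fold change for cKO against WT with vehicle (0.10) was 0.00 with voom and 0.01 without the 3 libraries that lie together on the first component. Without those 3 it was 0.11 for cKO against WT with DMαKG (0.03 in the full fit) and 0.02 for the interaction (-0.06). Leaving out 1 library at a time gave medians of 0.00 (without cKO DMαKG replicate 3) to 0.19 (without cKO DMαKG replicate 2) for cKO against WT with DMαKG. It gave 0.03 to 0.19, without the same libraries, for DMαKG against vehicle in cKO mice, and -0.09 (without WT vehicle replicate 4) to 0.03 (without cKO vehicle replicate 4) for the interaction. Of 1580 values of single members under alternatives, 1569 moved by less than 1 SD between replicates with no change of call, 8 moved by more, 3 passed the threshold (Bckdhb with DESeq2, Mccc2 with voom in both averaged comparisons), and 61 changed sign, none with a reported log2 fold change over 0.14 in size. The same-numbered libraries of both genotypes had deviations correlated from -0.28 to 0.466, and 2 of 6 pairs exceeded 0.1. The highest value belonged to replicate 4 of both vehicle groups. With 3 libraries per group these correlations cannot decide whether same-numbered libraries are paired. With the replicate number as a block 0 members were called, and Bckdhb had a log2 fold change of 0.57 (adjusted p = 0.493) for DMαKG against vehicle in cKO mice. Vehicle libraries are numbered 2 to 4 and DMαKG libraries 1 to 3, so only numbers 2 and 3 occur with both treatments. The 4 same-numbered pairs of both treatments within a genotype had deviations correlated from -0.217 to 0.234. Of the 30 group levels relative to WT vehicle, 22 moved by less than 1 SD in deposited TPM; the other 8 were all of cKO DMαKG. Depth limits single values to the counting error given above.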
